A study of Mus musculus with 6 samples.

Results

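The BMP and TGF-beta signalling genes described here are 57 named genes: 16 ligands, 13 receptors and co-receptors, 8 Smads, 7 antagonists, 4 latent TGF-beta binding proteins, 4 Smad ubiquitin ligases and nuclear repressors, and 5 target genes. They were chosen by name and found on the arrays through probes designed against a RefSeq transcript of the gene. Each of the 57 had at least 1 such probe, among 21368 genes with a named probe in all. Of the 57, 52 were bright enough to be tested, among 15306 genes tested. RNA came from the inguinal white adipose tissue (iWAT) of 3 WT and 3 Zip13-KO littermates on a C57BL/6J background, 1 array per sample. The mice were 10 weeks old. In Zip13-KO mice a Neo cassette replaces exons 6 to 8 of the gene for the zinc transporter ZIP13 in every tissue, so that the difference between genotypes need not arise in fat. Both genotypes received a powdered diet, and whether the standard or the high-fat one is not given per sample. The question was which classes of the pathway differed between Zip13-KO and WT iWAT.

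Ligands of the TGF-beta family bind pairs of type I and type II receptor kinases at the cell surface. The activated type I receptor phosphorylates receptor Smads, of which Smad1, Smad5 and Smad9 serve the BMP branch and Smad2 and Smad3 serve the TGF-beta and activin branch, and these enter the nucleus together with Smad4. In adipose tissue, BMPs are known to commit progenitors to the adipocyte lineage and to promote brown and beige adipocytes, whereas TGF-beta and activin signalling are known to restrain adipocyte differentiation and to promote matrix production. Loss of ZIP13 is known from connective tissue to disturb BMP and TGF-beta signalling.

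Values are normalized log2 intensities, in which 1 unit is a 2-fold difference, and a log2 fold change is the Zip13-KO mean minus the WT mean. A gene was called at a limma adjusted p (Benjamini-Hochberg, over all 15306 genes) under 0.05 together with a change of more than 1.5-fold, which is 0.58 on the log2 scale. The samples of a genotype are taken as separate mice. The limma p values set the difference of the means against the spread between these samples, moderated by the spread of all genes tested. An exact permutation test of 1 gene, two-sided, is limited to p = 0.1 or more by 3 arrays per genotype. Between 62.5% and 63.2% of the spots of a WT array were well above background, and between 58.8% and 60.4% of a Zip13-KO array. The median processed signal before normalization was 39.2 to 40.6 on the WT arrays and 33.2 to 35.0 on the Zip13-KO arrays. Every Zip13-KO array was thus dimmer than every WT array by both measures, and no spot was saturated. Slc39a13, the gene of ZIP13, was at 11.30, 10.87 and 10.72 on the WT arrays and at 6.76, 6.66 and 6.47 on the Zip13-KO arrays (log2 fold change -4.33, adjusted p = 0.00128).

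The cell type markers of the tissue also differed between the genotypes. All 8 markers of brown and beige adipocytes, 4 of 12 adipocyte markers (Cebpa, Lipe, Plin1 and Pparg) and 3 of 11 endothelial markers (Cdh5, Cldn5 and Esam) were called higher in Zip13-KO iWAT. Called lower were 8 of 11 macrophage markers and 4 of 12 markers of stromal progenitors and fibroblasts (Dpp4, Ly6a, Pdgfra and Thy1). For comparison, 10.3% of all genes tested were called higher and 8.38% lower, and the marker counts were not tested against these shares. No marker of skeletal muscle (10 tested) or mammary epithelium (6 tested) was called, and Csn2, Wap and Elf5 of the latter were not well above background on any array. All 10 tested muscle markers had log2 fold changes above 0 (median 0.88), and the summed muscle level of Zip13-KO replicate 3 was 13.22 against 11.02 to 12.14 on the other 5 arrays. WT replicate 1 had the highest summed macrophage level (16.82) and stromal level (18.89) and the lowest adipocyte level (19.33) of the 6 arrays, each as log2 of the summed intensities. The markers called in a count of 5 or fewer were named after their values were seen. In bulk tissue, fewer cells of a type and less RNA per cell cannot be told apart.

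In Zip13-KO iWAT, 7 of the 52 tested members were called higher and 5 were called lower. That is 13.5% and 9.62% of them, against 10.3% of all genes called higher, 8.38% called lower and 18.7% in either direction, so the shares lay near those of the whole array and are not a result about the pathway as a whole. The members went both ways: 26 had a log2 fold change above 0 and 26 below, with a median of 0.01 against -0.00 over all genes tested. The median size of the log2 fold change was 0.38 for the members and 0.28 for all genes. Every Zip13-KO array lay above every WT array for 16 members and below for 7, where 29.2% of all genes were separated upward and 25.9% downward. At an unadjusted limma p under 0.05 there were 21 members (40.4%), against 47.1% of all genes. Without WT replicate 1 the counts were 6 higher and 4 lower, without Zip13-KO replicate 1 they were 4 and 2, and without Zip13-KO replicate 2 they were 5 and 2. The 5 members left untested were Bmp5, Bmp8b, Bmpr1b, Smad9 and Bambi, whose probes were not well above background on any array. Gdf11 was well above background on 3 WT arrays and 1 Zip13-KO array, and the other 51 members on all 6.

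**Figure D1:**
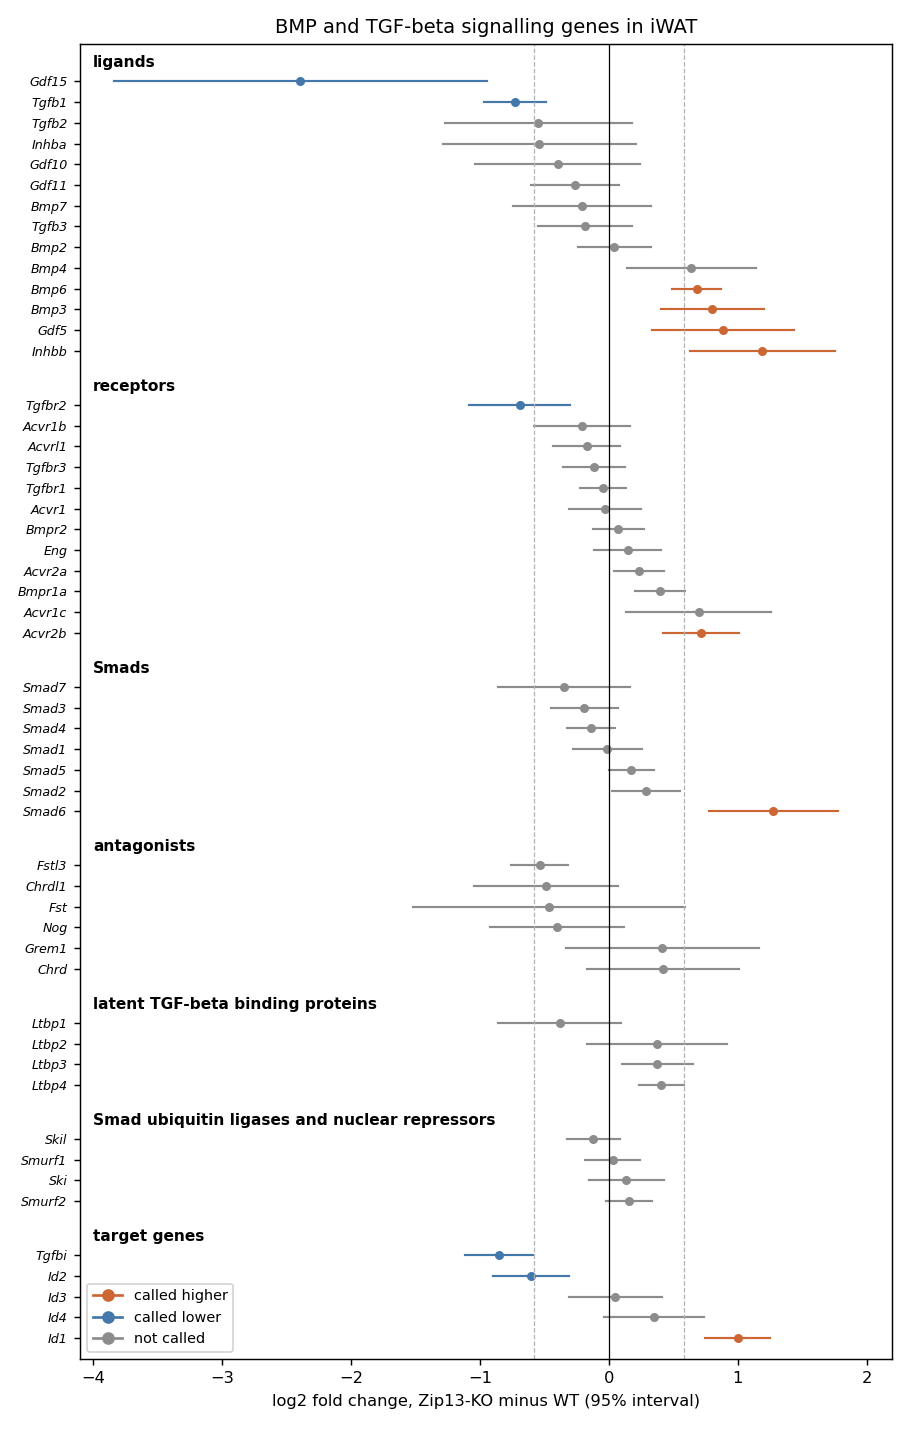
Log2 fold change (Zip13-KO minus WT, with its 95% limma interval) of the 52 tested members, grouped by class, with orange for members called higher, blue for members called lower and gray for the rest; dashed lines mark a 1.5-fold change. Called members appear on both sides of 0, from -2.39 for Gdf15 to 1.28 for Smad6, and the antagonists, latent TGF-beta binding proteins, and ligases and repressors hold none.

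Among the 14 tested ligands, 4 were called higher (28.6%) and 2 lower (14.3%), and the median log2 fold change was -0.20. Over all genes tested, 10.3% were called higher and 8.38% lower. The ligand shares rest on few genes and were not tested against these. The 9 tested BMP and GDF ligands had a median log2 fold change of 0.04 with 3 called higher and 1 lower, and the 5 TGF-beta and activin ligands a median of -0.54 with 1 called higher and 1 lower. Inhbb, which encodes the subunit of activin B, had a normalized log2 intensity of 9.22, 10.02 and 9.81 on the WT arrays and of 11.08, 10.93 and 10.62 on the Zip13-KO arrays. Its lowest Zip13-KO array lay above the highest WT array, and WT replicate 1 was the lowest of the 6. The level was 2.29-fold higher in Zip13-KO iWAT (log2 fold change 1.19, standard error 0.23, adjusted p = 0.0135), and the call was lost without Zip13-KO replicate 1 (adjusted p = 0.0535) or 2 (adjusted p = 0.0513). Inhba, the subunit of activin A, had a log2 fold change of -0.54 that did not pass the test (adjusted p = 0.214).

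Gdf5, a BMP-type ligand of joints and of brown fat, was at a normalized log2 intensity of 5.42, 6.15 and 5.77 on the WT arrays and 6.55, 7.00 and 6.45 on the Zip13-KO arrays. The genotypes did not overlap, and the level was 1.85-fold higher in Zip13-KO (log2 fold change 0.89, standard error 0.23, adjusted p = 0.0290). Its second, dimmer probe gave a log2 fold change of 1.01 that was not called (adjusted p = 0.0896). The call on the brighter probe was lost without WT replicate 1, WT replicate 3 or any of the Zip13-KO replicates, with adjusted p from 0.0512 to 0.0823, without the filter for dim probes (adjusted p = 0.0578), and with normexp background correction (log2 fold change 0.55).

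Bmp3, an atypical BMP known to oppose the others, gave 6.46, 6.88 and 7.00 on the WT arrays and 7.77, 7.47 and 7.51 on the Zip13-KO arrays in normalized log2 intensity. It was higher on every Zip13-KO array (log2 fold change 0.80, standard error 0.16, adjusted p = 0.0156), though not called without Zip13-KO replicate 1 (log2 fold change 0.71, adjusted p = 0.0582) or with normexp background correction (log2 fold change 0.54). Bmp6, a BMP made by endothelium and known for its part in iron control, read 7.54, 7.72 and 7.65 in WT and 8.32, 8.29 and 8.35 in Zip13-KO on the same scale. The 3 Zip13-KO arrays of Bmp6 lay within 0.1 log2 units of each other, and none overlapped the WT arrays. It was called higher with all arrays (log2 fold change 0.68, standard error 0.08, adjusted p = 0.00535) and without any 1 array. The log2 fold change was 0.48 with normexp, 0.52 with no background correction and 0.53 from the deposited values, all under the fold threshold.

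Bmp4, which commits progenitors to the adipocyte lineage, had every Zip13-KO array above every WT array but did not pass the test (log2 fold change 0.64, adjusted p = 0.0552). Bmp7, known for promoting brown adipocytes, had a log2 fold change of -0.21 (adjusted p = 0.492) and Bmp2 of 0.04 (adjusted p = 0.797). Neither passed the test, and the 95% interval of the log2 fold change ran from -0.74 to 0.33 for Bmp7 and from -0.24 to 0.33 for Bmp2.

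Gdf15, a ligand released under cell stress that signals to the brainstem through a receptor outside the type I and type II kinases, showed the widest difference of the 52 members. On the normalized log2 scale it was at 9.85, 7.66 and 8.52 in WT and at 6.95, 6.19 and 5.70 in Zip13-KO iWAT. The WT arrays spread over more than 2 log2 units, with replicate 1 the highest, and still did not overlap the Zip13-KO arrays. The level was 5.25-fold lower in Zip13-KO iWAT (log2 fold change -2.39, standard error 0.59, adjusted p = 0.0269). The call was lost without WT replicate 3 or any 1 Zip13-KO replicate, with adjusted p from 0.0516 to 0.0803, and without the filter for dim probes (adjusted p = 0.0572).

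Tgfb1, which encodes TGF-beta 1, was at a normalized log2 intensity of 10.26, 10.01 and 10.08 in WT and 9.41, 9.28 and 9.48 in Zip13-KO iWAT. The replicates were tight and the genotypes apart: its level was 1.65-fold lower in Zip13-KO (log2 fold change -0.73, standard error 0.10, adjusted p = 0.00686), and it was called without any 1 array. Tgfb2 and Tgfb3 had log2 fold changes of -0.55 (adjusted p = 0.195) and -0.18 (adjusted p = 0.372), neither called. WT replicate 3 was the lowest WT array for Tgfb2 and for Gdf10, and without it both were called lower, with log2 fold changes of -0.86 (adjusted p = 0.0277) and -0.69 (adjusted p = 0.0230). The 8 ligands that were not called ran from -0.55 (Tgfb2) to 0.64 (Bmp4).

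**Figure D2:**
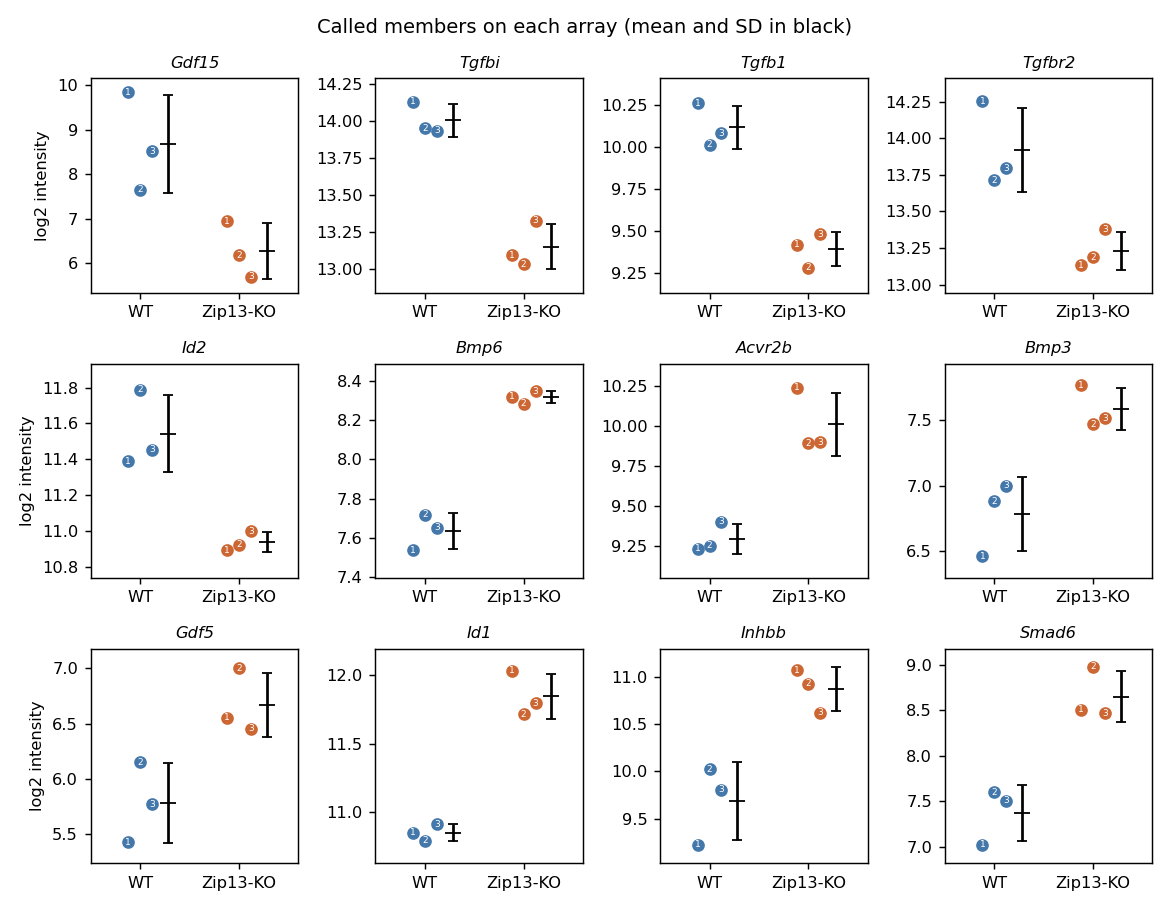
Normalized log2 intensity of the 12 called members on each of the 6 arrays, with a panel and an axis of its own for each gene, blue points for WT and orange for Zip13-KO, the replicate number inside each point, and mean and SD (n = 3) in black. No WT array overlaps a Zip13-KO array in any panel, and the widest WT spread is that of Gdf15, from 7.66 to 9.85. The panels hold only members chosen by the call, which favors separation. Of all genes tested, 29.2% were separated upward and 25.9% downward.

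Of the 12 tested receptors and co-receptors, 1 was called higher and 1 lower, both type II receptors, and the median log2 fold change was 0.02. That is 8.33% each way, near the 10.3% of all genes called higher and 8.38% called lower. Acvr2b, a type II receptor for activins, myostatin and some BMPs, gave normalized log2 intensities of 9.23, 9.25 and 9.40 in WT and 10.24, 9.89 and 9.90 in Zip13-KO iWAT. It was higher on every Zip13-KO array, by 1.64-fold (log2 fold change 0.72, standard error 0.12, adjusted p = 0.00998), and called without any 1 array. Tgfbr2, the type II receptor that binds TGF-beta, was at 14.25, 13.71 and 13.80 in WT and 13.13, 13.19 and 13.38 in Zip13-KO on the same scale. WT replicate 1 was the highest of the 6 arrays and the genotypes did not overlap (log2 fold change -0.69, standard error 0.16, adjusted p = 0.0227). A second probe of Tgfbr2 was called lower too (log2 fold change -0.84, adjusted p = 0.0269). The call on the brighter probe was lost without WT replicate 1, where the log2 fold change was -0.52, without Zip13-KO replicate 1 (adjusted p = 0.0802) or 2 (adjusted p = 0.0746), and with 75th percentile scaling in place of quantile normalization (log2 fold change -0.56).

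The type I receptors held no called gene among 6 tested. Acvr1c encodes ALK7, an activin-type receptor found mainly on adipocytes. Its brighter probe read 11.17, 12.06 and 11.80 in WT and 12.43, 12.22 and 12.47 in Zip13-KO, in normalized log2 intensity. That probe missed the threshold (log2 fold change 0.70, adjusted p = 0.0618), while its other probe passed it (log2 fold change 0.83, adjusted p = 0.0423). The brighter probe was called without WT replicate 2 (adjusted p = 0.0371) and with 75th percentile scaling (adjusted p = 0.0435). Bmpr1a, a type I receptor of BMPs, was 1.32-fold higher with an adjusted p of 0.0148, under the fold threshold.

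Acvr1 encodes ALK2, a type I receptor of BMPs that can also relay activin signals. The brighter of its probes stood at 11.29, 11.15 and 11.13 in WT and 11.17, 10.97 and 11.35 in Zip13-KO, in normalized log2 intensity. The genotypes overlapped, and its probes gave log2 fold changes of -0.03 and 0.12, neither called; with 75th percentile scaling the brighter probe also turned to 0.04. The receptors not yet described, Tgfbr1, Acvr1b and Acvrl1 of type I, Bmpr2 and Acvr2a of type II, and the co-receptors Tgfbr3 and Eng, had log2 fold changes from -0.21 (Acvr1b) to 0.23 (Acvr2a) by their brightest probes and were not called. A dimmer probe of Tgfbr1, the type I receptor for TGF-beta, gave a log2 fold change of -0.51 (adjusted p = 0.0114), under the fold threshold, where the brighter one gave -0.05.

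Among 7 tested Smads, the inhibitory Smad6 was called higher and no other was called, with a class median log2 fold change of -0.01. The share called higher was 14.3%, against 10.3% of all genes. Smad6 blocks signalling by the BMP receptor Smads and is itself switched on by BMP signalling. Its normalized log2 intensity was 7.02, 7.60 and 7.50 in WT and 8.51, 8.98 and 8.47 in Zip13-KO iWAT. All 3 Zip13-KO arrays stood above all 3 WT arrays, by 2.42-fold on the means (log2 fold change 1.28, standard error 0.21, adjusted p = 0.00922). It stayed called without any 1 array. Smad7, the other inhibitory Smad, which acts on both branches, gave 8.84, 8.82 and 9.29 in WT and 8.25, 8.84 and 8.82 in Zip13-KO. Those arrays overlapped (log2 fold change -0.35, adjusted p = 0.236), and whether Smad6 and Smad7 differed in their response was not tested. By their brightest probes, the receptor Smads and Smad4 lay between -0.19 (Smad3) and 0.29 (Smad2) in log2 fold change. Dimmer probes gave -0.46 for Smad1 (adjusted p = 0.0254), against -0.01 from the brighter one, and -0.30 for Smad3 (adjusted p = 0.295).

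No antagonist was called among 6 tested, and their median log2 fold change was -0.43. Fstl3, a secreted protein that binds activins, came nearest, at a normalized log2 intensity of 7.91, 7.73 and 7.67 in WT and 7.25, 7.17 and 7.29 in Zip13-KO. It was lower on every Zip13-KO array (log2 fold change -0.54, standard error 0.09, adjusted p = 0.0103) but by less than 1.5-fold, and without WT replicate 3 it passed the fold threshold (log2 fold change -0.58). Chrd encodes chordin, which holds BMPs away from their receptors. It read 6.60, 6.21 and 6.29 in WT and 6.53, 7.32 and 6.51 in Zip13-KO on the same scale. Zip13-KO replicate 2 stood above the other 5 arrays, and the log2 fold change of 0.42 was not called (adjusted p = 0.215). Chrdl1, Fst and Nog, 3 further extracellular antagonists, had log2 fold changes of -0.49, -0.46 and -0.40, and Grem1, which encodes gremlin, of 0.42, with adjusted p from 0.143 to 0.435. The dimmer probes of Chrdl1 gave log2 fold changes of -0.12 and -0.07. The interval of Fst, which encodes follistatin, ran from -1.52 to 0.59, which includes a 2-fold fall.

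The 4 latent TGF-beta binding proteins are a family of matrix proteins, of which some, but not Ltbp2, bind latent TGF-beta. Their median log2 fold change was 0.38 and none was called. Ltbp4 was at a normalized log2 intensity of 12.40, 12.41 and 12.43 in WT and 12.78, 12.78 and 12.90 in Zip13-KO. Its WT arrays lay within 0.1 log2 units of each other and below every Zip13-KO array (log2 fold change 0.41, standard error 0.07, adjusted p = 0.0110), under the fold threshold. Ltbp3 was likewise separated (log2 fold change 0.38, adjusted p = 0.0471). Ltbp1 read 9.95, 9.57 and 9.17 in WT and 9.19, 9.12 and 9.24 in Zip13-KO, where WT replicate 3 lay among the Zip13-KO arrays (log2 fold change -0.38, adjusted p = 0.172). Ltbp2 had a log2 fold change of 0.38 (adjusted p = 0.229) and was called higher without WT replicate 3 (log2 fold change 0.62, adjusted p = 0.0240).

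The ubiquitin ligases Smurf1 and Smurf2, which mark Smads and receptors for breakdown, and the nuclear repressors Ski and Skil, which hold Smads inactive on DNA, showed the narrowest range of the classes by brightest probe. Their log2 fold changes ran from -0.12 (Skil) to 0.16 (Smurf2), with none called. Skil was at a normalized log2 intensity of 9.08, 9.18 and 9.24 in WT and 9.03, 9.14 and 8.97 in Zip13-KO, so that the genotypes overlapped, and its dimmer probe gave a log2 fold change of -0.32 (adjusted p = 0.170). The brightest probe of Smurf2 read 9.47, 9.49 and 9.57 in WT and 9.62, 9.66 and 9.73 in Zip13-KO. Its other probes gave log2 fold changes of -0.40 and 0.03, none called, and the direction of Smurf2 therefore depends on the probe.

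The 5 target genes split, with 1 called higher and 2 lower. These shares, 20% and 40%, rest on 5 genes and were not tested against the 10.3% and 8.38% of all genes. The Id genes encode proteins that bind helix-loop-helix transcription factors and keep them off DNA, and they are standard immediate targets of BMP Smads. Id1 had a normalized log2 intensity of 10.85, 10.79 and 10.91 in WT and of 12.03, 11.72 and 11.80 in Zip13-KO iWAT. Its level was 2.0-fold higher in Zip13-KO (log2 fold change 1.0, standard error 0.10, adjusted p = 0.00479), with every Zip13-KO array above every WT array. Id2 went the other way, from 11.39, 11.79 and 11.45 in WT to 10.89, 10.93 and 11 in Zip13-KO. It was 1.52-fold lower (log2 fold change -0.61, standard error 0.12, adjusted p = 0.0148), just past the fold threshold and separated between the genotypes. Id3 and Id4 had log2 fold changes of 0.05 (95% interval -0.31 to 0.41) and 0.35 (interval -0.04 to 0.74), neither called. The call of Id1 held without any 1 array. That of Id2 was lost without WT replicate 2 (log2 fold change -0.48), without Zip13-KO replicate 1 (adjusted p = 0.0588) or 2 (adjusted p = 0.0553), and with 75th percentile scaling (log2 fold change -0.55).

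Tgfbi encodes an extracellular matrix protein named for its induction by TGF-beta. Its normalized log2 intensity was 14.13, 13.95 and 13.93 in WT and 13.09, 13.03 and 13.33 in Zip13-KO iWAT. The level was 1.81-fold lower in Zip13-KO (log2 fold change -0.85, standard error 0.11, adjusted p = 0.00628), with no overlap, and it was called without any 1 array. Tgfb1, Tgfbr2 and Tgfbi were thus each called lower, while no probe of Tgfbr1, Smad2 or Smad3 was called. Log2 of the summed intensity of the 11 macrophage markers was 16.15 to 16.82 in WT and 15.14 to 15.45 in Zip13-KO, and none of the 11 was at background in either genotype. For the 12 stromal markers the sum was 17.82 to 18.89 in WT and 17.60 to 17.89 in Zip13-KO. The summed level of the 11 endothelial markers was 14.90 to 15.08 in WT and 15.37 to 15.47 in Zip13-KO. The part of these markers in the differences of the members was not tested.

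No promoter sequence was matched by symbol for 16 members, the called BMP target Id1 among them. Of the called Smad-related genes that had one, 3 are printed. Smad6 and Id2 are known BMP targets that went in opposite directions, and Tgfbi is a TGF-beta target. Each printed sequence is the 250 bases before the RefSeq transcription start in GRCm38.p6, read 5′ to 3′ on the strand of the gene. Capitals mark GGCGCC, a GC-rich Smad motif, and CAGAC or its complement GTCTG, the Smad-binding element. Smad6 lies on the minus strand (chr9:64022060-64022309), Id2 on the minus strand (chr12:25096093-25096342) and Tgfbi on the plus strand (chr13:56609336-56609585).
Smad6: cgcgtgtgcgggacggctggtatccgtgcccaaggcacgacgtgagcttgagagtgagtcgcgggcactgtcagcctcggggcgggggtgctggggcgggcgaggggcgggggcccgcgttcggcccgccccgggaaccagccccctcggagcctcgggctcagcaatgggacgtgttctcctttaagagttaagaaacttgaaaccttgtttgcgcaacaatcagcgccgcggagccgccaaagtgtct
Id2: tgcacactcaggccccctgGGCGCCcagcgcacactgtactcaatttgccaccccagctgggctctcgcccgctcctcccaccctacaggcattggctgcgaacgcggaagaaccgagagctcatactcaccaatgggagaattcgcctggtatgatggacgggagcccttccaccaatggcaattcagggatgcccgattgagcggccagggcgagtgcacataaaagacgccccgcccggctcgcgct
Tgfbi: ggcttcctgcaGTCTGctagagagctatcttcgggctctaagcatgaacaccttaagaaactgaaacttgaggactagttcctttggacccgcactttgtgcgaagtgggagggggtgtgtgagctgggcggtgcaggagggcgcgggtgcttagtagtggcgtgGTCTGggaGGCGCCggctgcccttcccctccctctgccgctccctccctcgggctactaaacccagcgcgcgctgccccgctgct
The Smad6 window held neither motif, that of Id2 held 1 GGCGCC, and that of Tgfbi held 1 GGCGCC and 2 GTCTG. Among members that were not called, the Id3 window held 2 CAGAC or GTCTG and that of Id4 held 1 GGCGCC. Over 32851 mouse promoter windows of the same length, 9.59% held GGCGCC and 42.2% held CAGAC or GTCTG on either strand. Among the 51 windows of the 41 members matched by symbol, the shares were 27.5% and 49.0%, and these windows were richer in G and C (median 66.4% against 52.4%). A match is a description of the letters and not of a bound site.

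The class medians were set side by side by array, and a median lies within the range of its members by construction. The class median, relative to the WT mean of each gene, was 0.28, 0.31 and 0.39 log2 units on the Zip13-KO arrays for the latent TGF-beta binding proteins, against -0.03, -0.04 and 0.06 on the WT arrays. For the ligands it was -0.13, -0.13 and -0.15 on the Zip13-KO arrays and 0.15, 0.09 and -0.11 on the WT arrays. Those 2 classes were the only ones of the 7 in which the medians of the genotypes did not overlap, and the ligands came within 0.1 log2 units of overlapping. Single genes were often separated too, 29.2% of all genes tested upward and 25.9% downward. The latent TGF-beta binding proteins are only 4 genes, of which 2 were separated upward and Ltbp1 had a log2 fold change of -0.38. The antagonists overlapped, at -0.07, -0.34 and -0.37 against 0.26, -0.10 and -0.09, with WT replicate 1 the highest. Receptors, Smads, ligases and repressors, and target genes had medians between -0.15 and 0.16 on every array. No test was made of a class.

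**Figure D3:**
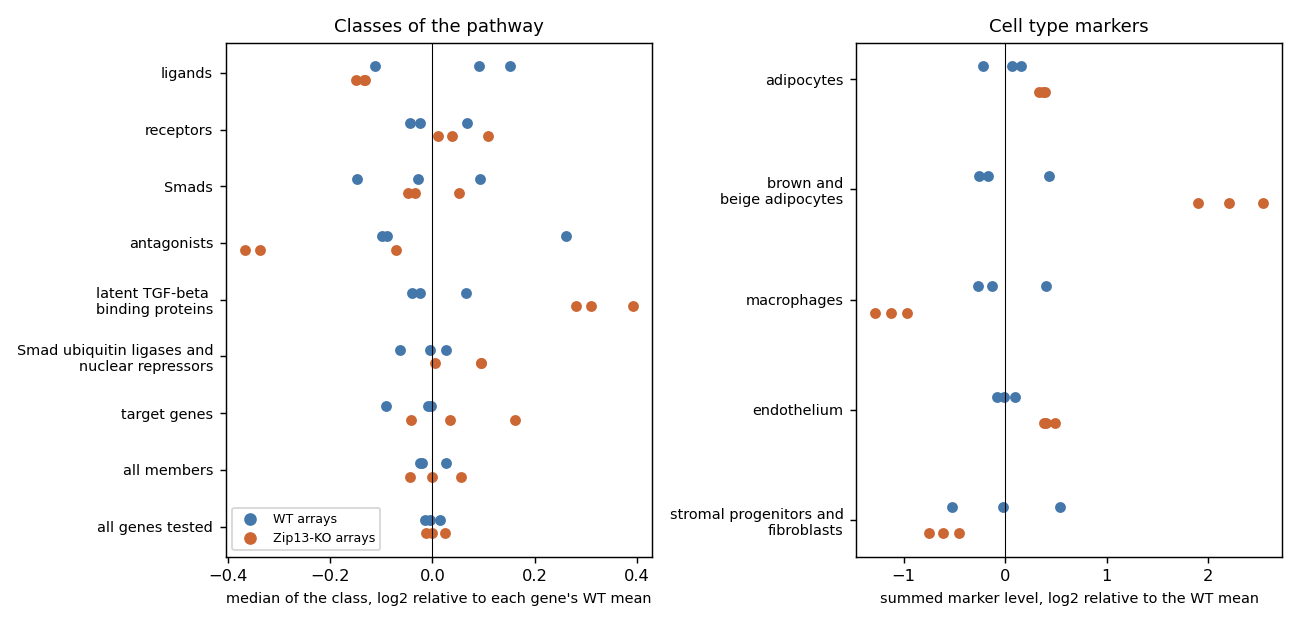
Left, the median log2 intensity of each class relative to the WT mean of each gene, and right, log2 of the summed marker intensities relative to the WT mean, with 1 point per array, blue for WT and orange for Zip13-KO. The median of the 4 latent TGF-beta binding proteins stands apart by genotype at 0.28 to 0.39 on the Zip13-KO arrays, though Ltbp1 had a log2 fold change of -0.38. The marker sums on the right are separated by genotype for all lists shown except the stromal one. The skeletal muscle and mammary epithelium lists, whose sums overlapped between the genotypes, are not shown.

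A further 105 genes of the pathway were listed by role, and 86 were tested, of which 6 were called higher (6.98%) and 7 lower (8.14%), near the shares of all genes. Among 17 other TGF-beta targets, 13 lay below 0 (76.5%, against 50.1% of all genes) and the median log2 fold change was -0.46. Of the 17, 1 was called higher (Cdkn2b, 0.59) and 2 lower. Pmepa1, a TGF-beta target listed with the intracellular regulators and so not among the 17, was called higher (1.12). WT replicate 1 was the highest of the 6 arrays for 10 of the 17, and without it the median was -0.24 with 10 below 0. All 12 stromal markers lay below 0 as well, 2 of them (Col1a1 and Col3a1) being among the 17, and their part in this was not tested. Those called lower were Timp1 and Fn1. Timp1, a metalloproteinase inhibitor, was at a normalized log2 intensity of 13.27, 11.25 and 9.91 in WT and 8.23, 7.95 and 8.34 in Zip13-KO. Its WT arrays spread over more than 3 log2 units, all above the Zip13-KO arrays. It was 9.87-fold lower in Zip13-KO (log2 fold change -3.30, adjusted p = 0.0248) with all arrays and 5.30-fold lower without WT replicate 1. The log2 fold change of Fn1, fibronectin, was -1.12 (adjusted p = 0.0414), and -0.80 without WT replicate 1 (adjusted p = 0.0572). Among 9 genes listed as other BMP targets, the median was 0.35, with Hey1 (1.07) called higher. Zfp423, which is on that list but is not an established BMP target, was also called higher (0.68). Runx2, the osteoblast transcription factor, was called lower (adjusted p = 0.0154) and no Zip13-KO array had it well above background. It was at least 1.48-fold lower there, when the Zip13-KO arrays are set at the lowest signal well above background on each.

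The 23 other intracellular regulators gave 2 higher and 1 lower. Pmepa1, a TGF-beta target that restrains Smad signalling, had a log2 fold change of 1.12 (adjusted p = 0.0177), Nedd4l of 0.61 and Dab2 of -1.03. Of 20 other extracellular regulators, 15 lay below 0 and 2 were called lower. These were Thbs1, thrombospondin 1, which can activate latent TGF-beta (-1.43, adjusted p = 0.0125), and Bmper, a BMP-binding regulator (-0.82). Of 6 other receptors and co-receptors, Rgma, a BMP co-receptor, was called higher (1.1, adjusted p = 0.00418) and Nrros, which anchors latent TGF-beta on myeloid cells, lower (-0.86). None of 11 other ligands was called. With 1 array left out in turn, Rgma, Thbs1, Nrros, Hey1 and Zfp423 were called each time. Pmepa1 and Dab2 were lost without Zip13-KO replicate 1 or 2, with adjusted p from 0.0634 to 0.0749. Timp1 was lost without WT replicate 2 or any 1 Zip13-KO replicate (adjusted p from 0.0549 to 0.0774), Fn1 and Bmper in every fit but that without WT replicate 3, and Runx2 without Zip13-KO replicate 1 (adjusted p = 0.0530). Cdkn2b was lost without WT replicate 1, Zip13-KO replicate 1 or Zip13-KO replicate 2, and Nedd4l without WT replicate 1, Zip13-KO replicate 1 or Zip13-KO replicate 3. Cdkn2b, Hey1, Zfp423, Nedd4l, Dab2, Bmper and Nrros were named after their values were seen.

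The 6 arrays shared 1 slide and 1 scan. In the first column of the slide lay all 3 WT arrays together with Zip13-KO replicate 1, and Zip13-KO replicates 2 and 3 in the second. Within the first column, Zip13-KO replicate 1 differed from the WT mean by 1.13 log2 units for Smad6, 1.19 for Id1, 1.39 for Inhbb, 0.69 for Bmp6, 0.94 for Acvr2b, -0.70 for Tgfb1, -0.91 for Tgfbi and -1.72 for Gdf15. With the slide column as a term, the genotypes are compared through that 1 array, which is assumed to vary like the others. None of the 12 members was called then, with adjusted p from 0.0578 to 0.214, and over all genes 0 were called higher and 7 lower. Of the 12, Bmp6, Tgfb1, Acvr2b, Smad6, Id1 and Tgfbi were called in each of the 6 fits with 1 array left out.

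**Figure D4:**
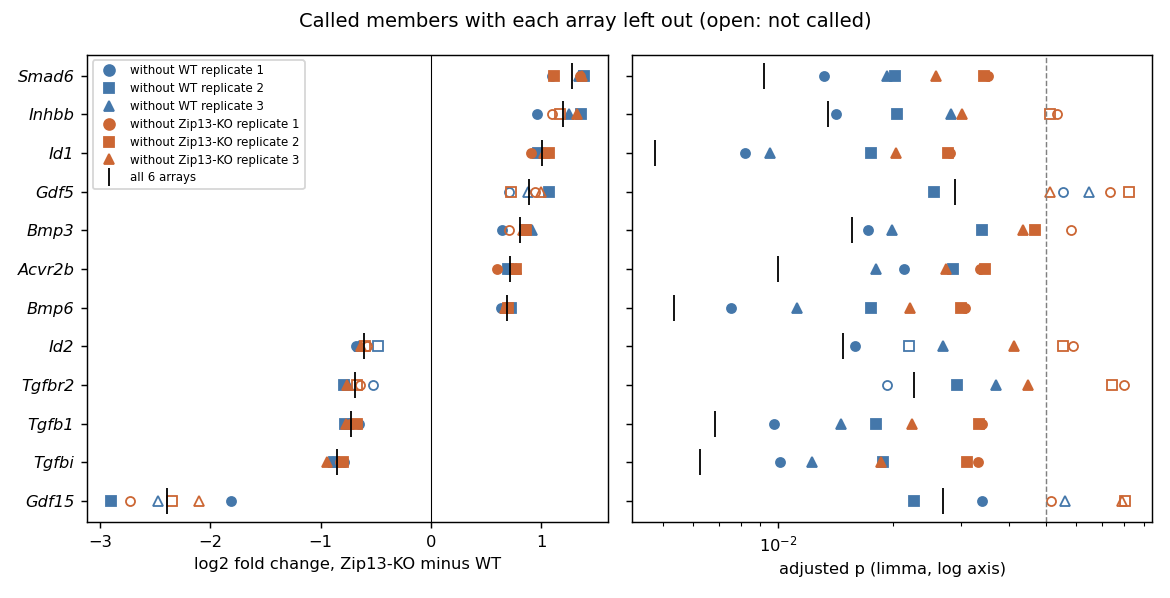
The 12 called members with each array left out in turn, as log2 fold change (left) and as limma adjusted p on a log axis (right), with filled symbols where the member was still called, open symbols where it was not, vertical ticks for all 6 arrays and a dashed line at 0.05. Bmp6, Tgfb1, Acvr2b, Smad6, Id1 and Tgfbi have filled symbols throughout, and Gdf5 and Gdf15 have the most open ones.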

How the data were processed

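Each iWAT RNA (3 WT, 3 Zip13-KO) was hybridized to a 1-color Agilent array. The authors deposited scanner output (Feature Extraction 11.5.1.1) with a processed signal for each spot, an intensity already corrected for background, and a table of log2 median signals, quantile normalized without background correction. That table was an alternative only.

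From the processed intensity, control and outlier spots were left out, the log2 values of the spots of a probe averaged, and the 6 arrays quantile normalized, which forces 1 distribution on all arrays. Of 55681 probes, 33046 passed a filter (well above background throughout the 3 arrays of 1 genotype or both), and 20318 of them carried a RefSeq accession with a symbol (GRCm38.p6). The probe with the highest mean stood for a gene. Genes were fitted with lmFit and eBayes of limma 3.58.1 (R 4.3.3) in place of the study's combined t and median-ratio test, with its thresholds. Intervals are 95% limma intervals. The fit was tested on simulated data. The number of arrays limits the precision.

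The members, lists and tests were chosen with earlier results of these data known. Values by array are given for called members, the extremes of each class and members whose probes disagree in sign or call. Of the other pathway lists, the rule named the 6 called genes with the largest change, without values by array. Timp1 alone of these is given by array, outside that rule. A further marker list is not reported here.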

Additional observations from a re-analysis of the deposited data

How the results depend on the processing

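The 12 called members kept their direction under each alternative scaling, background correction, filter and probe rule. The count of members called higher, 7, became 4 with normexp background correction, 4 with the methods' t-test after Benjamini-Hochberg adjustment, 4 at an adjusted p under 0.01, 3 at more than 2-fold and 0 with the slide column as a term, and 4 to 8 with 1 array left out. The count called lower, 5, became 3 with 75th percentile scaling, 3 with that t-test, 2 at the stricter p, 1 at more than 2-fold and 0 with the slide column, and 2 to 7 with 1 array left out. By the adjusted t-test, Bmp3, Gdf5, Inhbb, Gdf15 and Tgfbr2 were the members not called (adjusted p from 0.0518 to 0.0864). Over all genes, 1576 higher and 1282 lower became 1007 and 721 with that t-test, 707 and 505 at the stricter p, 2951 and 2330 with no fold threshold, 485 and 505 at more than 2-fold, and 0 and 7 with the slide column. With 1 array left out they ran from 961 to 1672 higher and from 782 to 1455 lower.

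The class median of log2 fold changes became -0.087 for ligands with normexp, -0.12 for Smads and -0.02 for ligases and repressors with the mean of a gene's probes, and 0.47 for latent TGF-beta binding proteins with 75th percentile scaling. With the slide column it was -0.071 for antagonists, 0.28 for latent TGF-beta binding proteins and 0.16 for target genes. With 1 array left out it ran from -0.251 to -0.088 for ligands, -0.01 to 0.06 for receptors, -0.078 to 0.097 for Smads, -0.51 to -0.20 for antagonists, 0.30 to 0.42 for latent TGF-beta binding proteins, 0.04 to 0.12 for ligases and repressors, and -0.029 to 0.207 for target genes. The log2 fold change of Acvr1 turned to 0.035 with 75th percentile scaling, 0.043 with the mean of probes, 0.02 without WT replicate 1 and 0.066 without Zip13-KO replicate 2, and that of Smurf2 to -0.069 with the mean of probes. The causes were not tested, except that a stricter threshold gives fewer calls by construction.

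Same-numbered samples did not deviate together (correlations of -0.02, 0.04 and -0.08), so the numbers do not pair them. With a replicate block, 6 members were called higher and 4 lower, Bmp3 (adjusted p = 0.0556) and Tgfbr2 (adjusted p = 0.0585) being lost, and 1278 and 1051 genes. Slide and scan were not run as blocks, there being 1 of each. The files hold no mean signal, so normexp and no background correction used the median signal. Dim probes near background, such as Gdf11, limit what can be measured.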
